A study of Drosophila melanogaster with 2 samples.

Results

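Tracheal development genes of Drosophila melanogaster were examined for peaks of the tagged C/EBP protein Slbo in whole embryos. The set held 10 genes of the 13945 annotated protein-coding genes on the chromosome arms, namely trh, btl, bnl, vvl, rib, dysf, pnt, kni, crb and Gasp. A peak was given to a gene when its summit lay in the gene body or within 2 kb upstream of it. By that rule 25 of the 8714 series-level thresholded peaks on the 6 arms belonged to the set. The embryos, 8 to 24 h old by their source name although the age label gives a far larger number of hours, carried an slbo-eGFP transgene in the strain slbo-GFP, whose label names an insertion that targets slbo. Chromatin was recovered with an antibody against GFP according to the sample descriptions, although the antibody label reads slbo. There was 1 group with 2 biological replicates, and embryos without the tag were not analysed here. The promoter that drives the transgene is not given in the sources used here. No RNA was measured, so the whole-organism label could not be set against marker genes.

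The trachea is the branched tube network that carries air to the tissues of the fly. Placodes of the embryonic ectoderm take on tracheal identity through the transcription factors Trachealess and Ventral veins lacking, invaginate as sacs, and then send out branches toward cells that secrete Branchless, a fibroblast growth factor (FGF) read by the receptor Breathless. Later the tubes fuse, set their diameter with an apical chitin matrix and form fine terminal branches. Slbo itself is known for border cell migration in the ovary, in which it is needed for the expression of migration genes, btl among them.

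Peaks were present at 6 of the 10 genes. In the series-level list, which combines both replicates, pnt had 11 summits, crb 6, rib 3, bnl and dysf 2 each, and trh 1, while btl, vvl, kni and Gasp had 0. For comparison, 44% of all coding genes had at least 1 summit by the same rule. Replicate 1 alone gave 21 summits and replicate 2 alone gave 17, a mean of 19 ± 2.83 (SD, n = 2), and the same 6 genes had a summit in each. The share of all coding genes with a summit was 41.1% in replicate 1 and 33.1% in replicate 2. With whole embryos as material, a peak in few cells and a weaker peak in many cells cannot be told apart.

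**Figure D1:**
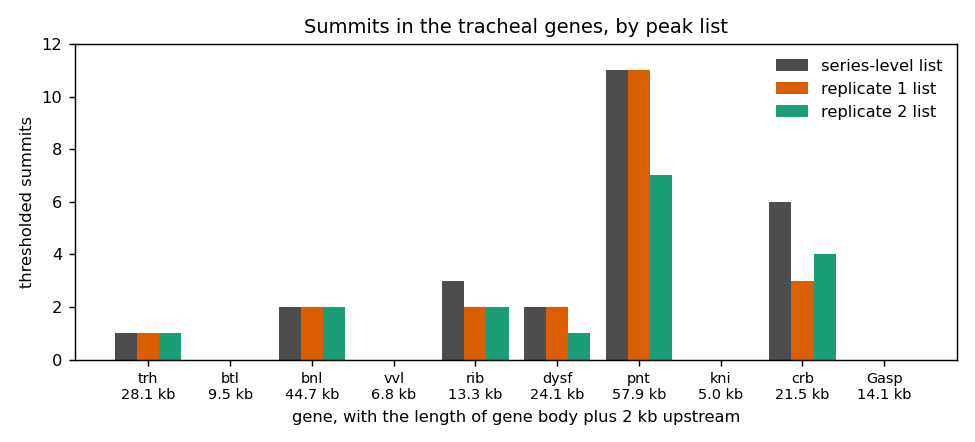
Number of thresholded summits (vertical axis) in each tracheal gene (horizontal axis, with the length of gene body plus 2 kb upstream in kb) in the series-level list and in each replicate's own list. The bars of pnt reach 11, 11 and 7 summits, and btl, vvl, kni and Gasp have no bar in any list.

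The gene regions were long, and length went with the presence of a peak. The median region of the 10 genes was 17.8 kb, against 4.17 kb over all coding genes. All 5 members with a region of at least 15 kb (trh, bnl, dysf, pnt and crb) had a summit, where 75.8% of coding genes of that length had one. Among the 5 members between 5 and 15 kb (btl, vvl, rib, kni and Gasp) only rib had a summit, where 56.7% of coding genes in that range had one. These length bounds were chosen after the counts were seen, and the part of length in the result was not tested. Per length, the 5 long members carried 1.25 summits per 10 kb, against 0.631 over all coding regions of at least 15 kb. The density was uneven among them. In crb it was 2.80 summits per 10 kb and in pnt 1.90, which placed these genes 47th and 153rd of 1556 long genes. Both counts moved by over 1.5 times with the list, since crb had 3 summits in replicate 1 alone in place of 6, and pnt had 7 in replicate 2 alone in place of 11. The densities of dysf (0.829), bnl (0.447) and trh (0.356) placed them 573rd, 908th and 1003rd.

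**Figure D2:**
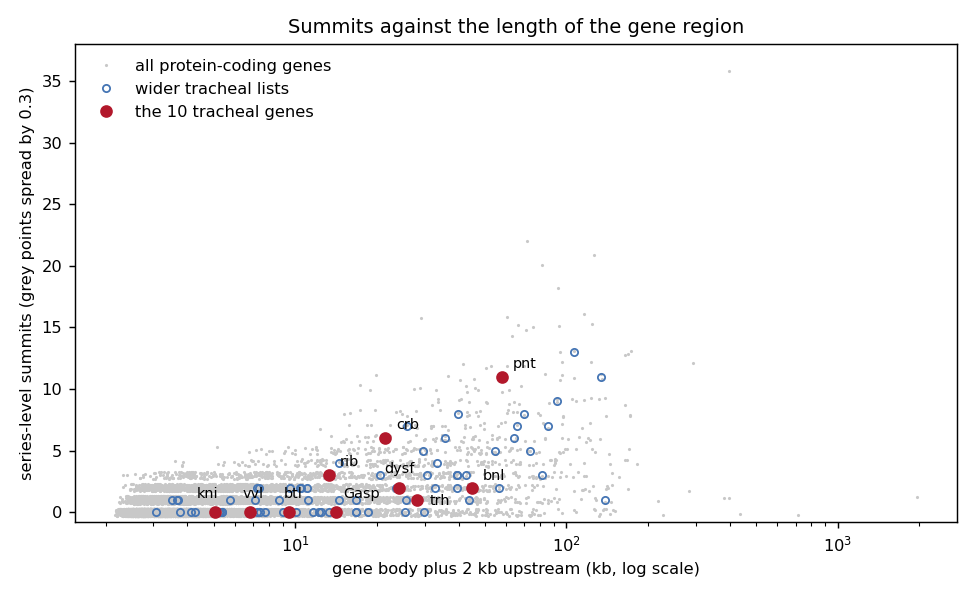
Series-level summits per gene (vertical axis) against the length of gene body plus 2 kb upstream (horizontal axis, kb, log scale), for the 10 tracheal genes, the genes of the wider tracheal lists and all protein-coding genes. Of the members, pnt with 11 summits in 57.9 kb and crb with 6 in 21.5 kb stand highest, and btl, vvl, kni and Gasp lie at 0.

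Branchless and Breathless, the ligand and its receptor, differed in whether they had a thresholded peak. The ligand gene bnl (FBgn0014135, chr3R:19794073-19836817, minus strand) had 2 summits, both in introns, 5.67 and 12.1 kb downstream of its 5′ end. The peak at 5.67 kb had a signal of 135 in the series-level list, 64.9 in replicate 1 and 62.7 in replicate 2. The signal is the peak caller's own value and was read only within a list. Expressed as a percentile, the share of the peaks of a list with a signal no higher, this peak stood at 55.6, 32.7 and 34.0 in those lists. The peak at 12.1 kb stood lower, at 37.0, 20.6 and 11.0. In the conservative list, bnl had a further summit in a coding exon with a signal of 68.6.

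Around the bnl summit at 5.67 kb the genome reads as printed next, shown because it is the stronger peak of the FGF gene. This sequence and those printed later are the plus strand of dm6, taken from the RefSeq copy of that build and centred on the summit over 101 bases, and capitals, where there are any, mark a motif named in the text.
bnl, chr3R:19831097-19831197: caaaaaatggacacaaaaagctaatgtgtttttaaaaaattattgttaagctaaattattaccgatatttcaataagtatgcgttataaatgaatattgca
A and T made up 77.2% of this window, against a median of 69.3% over the member windows and 63.4% over all summit windows on the arms. That of the other bnl summit was 65.3% A and T.

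The receptor gene btl (FBgn0285896, chr3L:14075772-14083229, plus strand) had no thresholded summit in any list. The ranked lists also hold peaks under the threshold, with a score that the authors derived from the IDR (irreproducible discovery rate), a measure of how repeatably a peak ranks between lists. The lowest score in the series-level thresholded list was 830 and the highest was 1000. The lowest scores of the replicates' own thresholded lists were not read, and 830 was set beside their ranked scores too. At btl the ranked lists held 7 peaks at the series level, 9 in replicate 1 and 5 in replicate 2, with best scores of 420, 410 and 121. Every peak at btl thus lay below 830 in each list. On the downstream side, the nearest series-level summit lay 28.4 kb from the gene, and its nearest start site was that of Sox21a.

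Of the 2 factors that specify the placode, trh had 1 summit and vvl had none. Trachealess (trh, FBgn0262139, chr3L:366524-392633, minus strand) is a bHLH-PAS factor that starts the tracheal programme. Its summit, at position 377702, lay 386 bp upstream of an internal start site, 14.9 kb into the gene, within introns of 2 of the 7 annotated transcripts. The signal was 220 in the series-level list, 100.2 in replicate 1 and 121 in replicate 2. As percentiles these were 74.6, 57.8 and 70.1, above the middle of each list. The next best ranked peak at trh scored 818.
trh, chr3L:377652-377752: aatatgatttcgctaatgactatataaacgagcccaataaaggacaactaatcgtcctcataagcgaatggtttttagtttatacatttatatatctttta
The window is shown as the only peak of this gene, and A and T made up 71.3% of it.

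Ventral veins lacking (vvl, FBgn0086680, chr3L:6790158-6794941, plus strand), a POU-domain factor, is a short gene with a region of 6.78 kb. Its ranked lists held 10 peaks at the series level and 7 in each replicate. The best scores were 735, 498 and 133, all below 830. The closest thresholded summit stood 2.62 kb downstream of the gene end, with a signal of 117, and its nearest start site was that of vvl, 7400 bp away. It therefore counted as outside the gene by the rule used.

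Dysfusion (dysf, FBgn0039411, chr3R:26076592-26098711, minus strand), a bHLH-PAS factor of the fusion cells that join neighbouring branches, had 2 summits 17.3 kb apart. The promoter summit, 385 bp upstream of a start site, had a signal of 146 in the series-level list, 85.6 in replicate 1 and 60.5 in replicate 2. It stood at percentile 58.9 in the series-level list and 31.1 in replicate 2. The intronic summit, 16.9 kb downstream of the 5′ end, had the lowest signal of all member peaks, 62.6, at percentile 6.47. It was found in replicate 1 with a signal of 46.2, was absent from the replicate 2 list, in which the overlapping ranked peak scored 222, and was absent from the conservative list. The promoter window of dysf is printed because it is the peak present in both replicates.
dysf, chr3R:26099046-26099146: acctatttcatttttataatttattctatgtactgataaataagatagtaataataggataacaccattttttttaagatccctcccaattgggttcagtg

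Pointed (pnt, FBgn0003118, chr3R:23290231-23346167, minus strand) is an ETS-domain factor that acts downstream of receptor tyrosine kinases and is needed in the terminal cells. Its 11 summits were spread over 53.5 kb, and 38 coding genes, pnt itself included, had as many or more. Of them 10 lay in introns and 1 lay 896 bp upstream of the gene, in the stretch between pnt and PolE1, whose own start site was 1065 bp from it. The smallest gap between neighbouring summits was 503 bp, the median 3224 bp and the largest 18113 bp. A group of 6 summits lay between 8.73 and 14.7 kb from the 5′ end, in an intron spanned by 1 of the 4 annotated transcripts. The nearest start site to 7 of the 11 was that of the non-coding gene lncRNA:CR46090, and to the other 4 that of pnt.

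The strongest pnt peak, at 19.7 kb from the 5′ end, had a signal of 297 in the series-level list, 159 in replicate 1 and 134 in replicate 2. Its percentiles were 82.7, 76.0 and 74.2. The next, at 10.5 kb, had signals of 247, 118 and 128, and the one at 11.1 kb had 229, 145 and 89.0. The peaks at 13.4 kb and upstream of the gene also occurred in both replicates, with series-level signals of 114 and 128. Another 5 pnt peaks occurred in replicate 1 and not in replicate 2, and the peak at 48.4 kb occurred in neither. For those 5 the overlapping ranked peaks of replicate 2 scored between 44 and 819, so that 2 of them, at 814 and 819, fell just below 830. Each replicate also had 1 pnt peak that the series-level list lacked, with a signal of 43.8 in replicate 1 and 36.5 in replicate 2. Replicate 2 also split the 10.5 kb peak into a pair, the weaker of which had a signal of 11.7.

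The windows of the 3 strongest pnt peaks are printed to show the intronic sequence they cover.
pnt at 19.7 kb, chr3R:23326421-23326521: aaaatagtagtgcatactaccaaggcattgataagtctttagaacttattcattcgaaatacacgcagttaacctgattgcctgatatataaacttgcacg
pnt at 10.5 kb, chr3R:23335650-23335750: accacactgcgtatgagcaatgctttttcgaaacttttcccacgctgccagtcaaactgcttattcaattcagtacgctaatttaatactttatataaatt
pnt at 11.1 kb, chr3R:23334992-23335092: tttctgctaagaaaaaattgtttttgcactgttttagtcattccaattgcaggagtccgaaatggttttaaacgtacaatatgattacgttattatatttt
None of the 5 motifs counted over all windows was in these 3, and their A and T content was 65.3%, 64.4% and 71.3%.

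**Figure D3:**
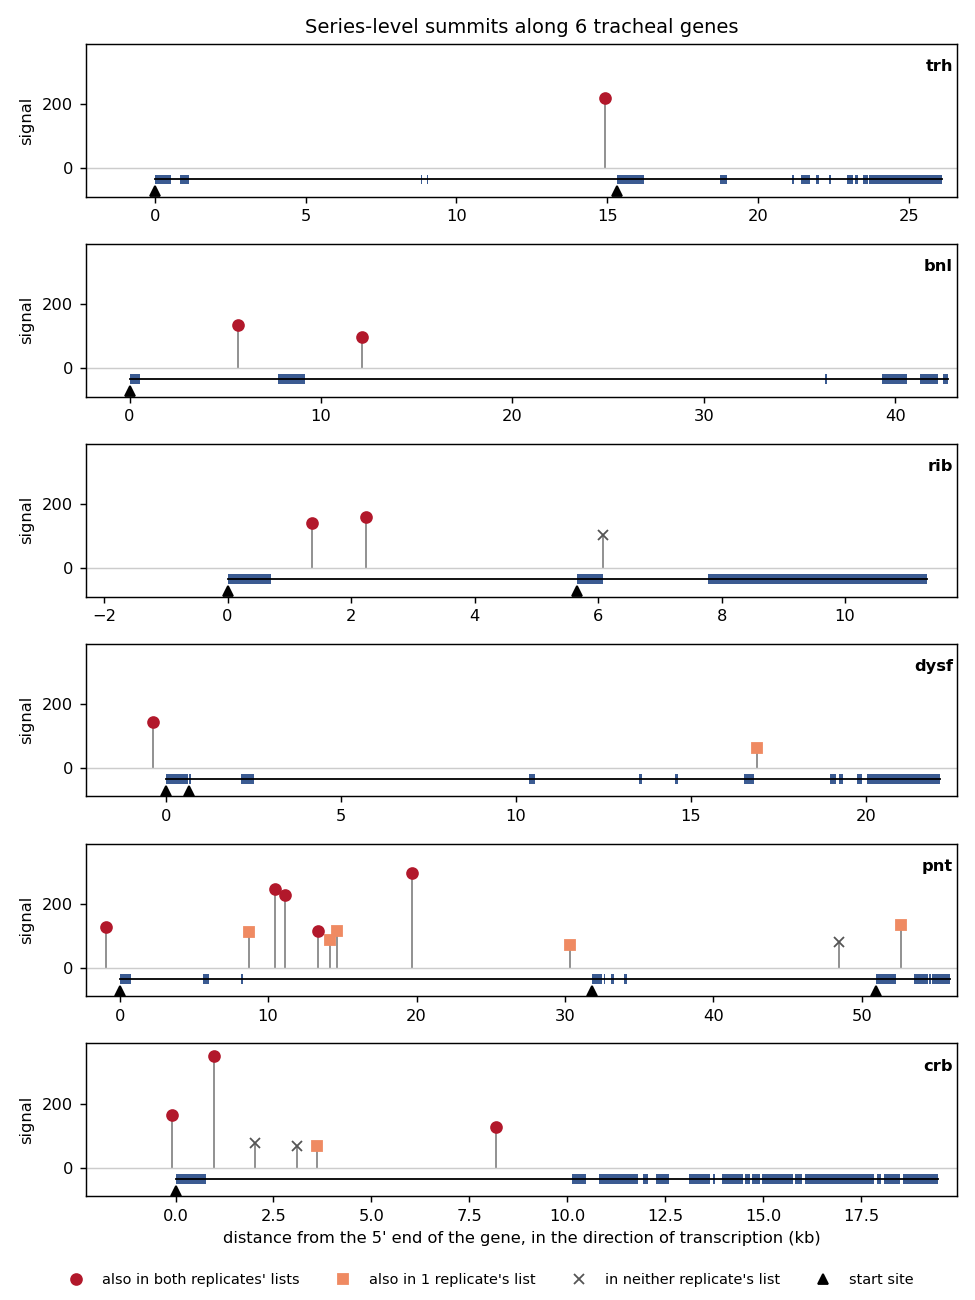
Series-level summits along the 6 tracheal genes with a peak, as signal (vertical axis) against distance from the 5′ end of the gene in kb in the direction of transcription (horizontal axis), with exons as blocks, start sites as triangles and the marker giving the number of replicate lists that also hold the peak. The tallest markers are the crb peak at 0.991 kb (350) and the pnt peak at 19.7 kb (297), both found in both replicates.

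Crumbs (crb, FBgn0259685, chr3R:24295078-24314541, plus strand) is a transmembrane protein of the apical membrane that sets apicobasal polarity and shapes the invaginating tracheal cells. Its 6 summits lay within 8.27 kb at the 5′ part of the gene, with a median gap of 1051 bp. In all, 194 coding genes, crb itself included, had as many or more. The peak at 0.991 kb, in an intron, was the strongest of all 25. It also lay in the region of the neighbouring gene CG5715, 1670 bp from that gene's start site. The signal of this peak was 350 in the series-level list, 169 in replicate 1 and 180 in replicate 2. These stood at percentiles 86.7, 78.2 and 84.0, and 1162nd by signal among the series-level peaks.

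The crb peak nearest the start site, 81 bp upstream of it, had signals of 165 in the series-level list, 112 in replicate 1 and 56.9 in replicate 2. It also lay in the region of the neighbouring gene CG5715, 598 bp from that gene's start site. The peak at 8.19 kb had signals of 129, 54.4 and 74.9 in the same lists. The other 3 were weaker, at 77.8, 68.4 and 67.7 in the series-level list. Of these the peaks at 2.04 and 3.09 kb were in neither replicate's list and the peak at 3.62 kb was in that of replicate 2 alone, with a signal of 45.4. At 2.04 kb the replicate 1 ranked peak scored 821, just below 830, and the replicate 2 peak scored 73.

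Windows of 3 crb peaks are printed, the strongest, the one at the start site and the one with the C/EBP motif. In the second, capitals mark GGTCACACT, the core of Motif 1, a sequence of many fly core promoters. In the third, they mark a match to TTGCNNAA, the left arm of a C/EBP site followed by the outer bases of its right arm.
crb at 0.991 kb, chr3R:24296019-24296119: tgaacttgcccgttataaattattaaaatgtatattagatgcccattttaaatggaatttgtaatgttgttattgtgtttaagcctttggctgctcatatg
crb upstream, chr3R:24294947-24295047: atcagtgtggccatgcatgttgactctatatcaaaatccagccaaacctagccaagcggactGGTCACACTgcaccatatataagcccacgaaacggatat
crb at 2.04 kb, chr3R:24297067-24297167: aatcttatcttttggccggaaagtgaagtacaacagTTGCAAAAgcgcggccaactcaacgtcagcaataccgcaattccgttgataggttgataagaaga
The Motif 1 core was searched after the crb window had been read. It began 12 bp after the summit, was in 1 of the 25 member windows, and was in 0.907% of all summit windows and 1.77% of promoter summit windows.

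Knirps and Gasp complete the genes without a thresholded summit. Knirps (kni, FBgn0001320, chr3L:20692330-20695378, minus strand), a zinc finger factor of the nuclear receptor family that takes part in the migration of tracheal branches, is the shortest member. It had 7 ranked peaks at the series level, 0 in replicate 1 and 7 in replicate 2, with best scores of 514 at the series level and 590 in replicate 2. Gasp (FBgn0026077, chr3R:6088799-6100887, minus strand) encodes a chitin-binding protein of the tube lumen. It had 8 ranked peaks at the series level, 8 in replicate 1 and 7 in replicate 2, with best scores of 219, 228 and 252. The nearest thresholded summits lay 15.3 kb from kni and 11.7 kb from Gasp, both on the upstream side. Per length, the series-level ranked list had 13.9 peaks per 10 kb at kni and 5.68 at Gasp, against 9.42 over the arms as a whole.

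**Figure D4:**
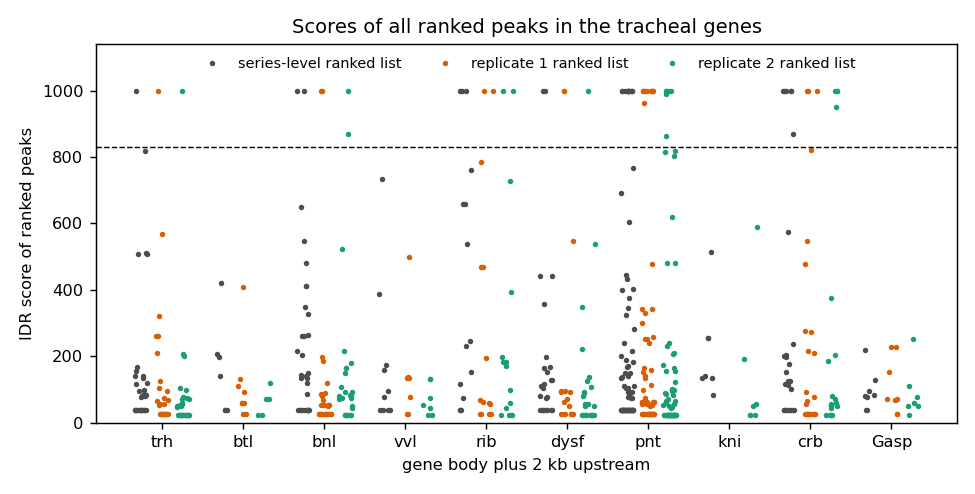
IDR score (vertical axis, 830 marked by the dashed line) of every ranked peak in each tracheal gene (horizontal axis) in the series-level and replicate ranked lists. Peaks at 1000 are present at trh, bnl, rib, dysf, pnt and crb, and the highest points at btl, vvl, kni and Gasp lie at 420, 735, 590 and 252.

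Ribbon (rib, FBgn0003254, chr2R:19270078-19281396, plus strand) is a BTB-domain factor needed for tracheal branch outgrowth, and it was the member of 5 to 15 kb with summits. Its intronic peak at 2.25 kb from the 5′ end had a signal of 161 in the series-level list, 100.3 in replicate 1 and 57.4 in replicate 2. The intronic peak at 1.38 kb had signals of 142, 76.0 and 71.3 in the same lists. The third lay 421 bp downstream of an internal start site with a series-level signal of 103. It was in neither replicate's list, and the overlapping ranked peaks scored 786 in replicate 1 and 728 in replicate 2. In the conservative list, rib had a further promoter summit, 134 bp upstream of an internal start site, with a signal of 75.7. The density, 2.25 summits per 10 kb, was second to that of crb among the members.

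Across the 25 summits, 20 lay in introns (80%, 95% Wilson interval 60.9% to 91.1%), against 35.3% of all summits on the arms. Promoters, taken as within 500 bp of an annotated start site, held 4 of 25 (16%, 6.40% to 34.7%), against 46.1% of all summits. The remaining summit was intergenic, and no member summit lay in an exon of its gene. In the replicate lists the promoter share was 14.3% of the member summits against 51.4% of all in replicate 1, and 17.6% against 50.2% in replicate 2, a mean over replicates of 16.0% ± 2.38 for the members (SD, n = 2). Long genes as a class had a lower promoter share. Of the 22 summits in long members (regions of at least 15 kb), 13.6% were promoter summits (4.75% to 33.3%) and 81.8% intronic (61.5% to 92.7%), against 29.1% and 63.4% over all 3879 summits in coding regions of that length. Both intervals of the long members include the share over long genes in general. Intervals cover counting error only, and summits of 1 gene are not independent.

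In signal, the member peaks sat near the middle of the list. Their series-level signal was 62.6 at the lowest, 128 at the median and 350 at the highest, against a median of 121 and a highest value of 5564 over all peaks on the arms. The median percentile was 53.3 at the series level, 49.1 in replicate 1 and 31.1 in replicate 2, a replicate mean of 40.1 ± 12.7 (SD, n = 2). Of the 25 peaks, 22 had a width of 330 bp, which was also the median over all peaks, and the others were 102, 174 and 179 bp wide. Those 3 were the peaks of pnt at 11.1 and 19.7 kb and of crb at 0.991 kb.

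**Figure D5:**
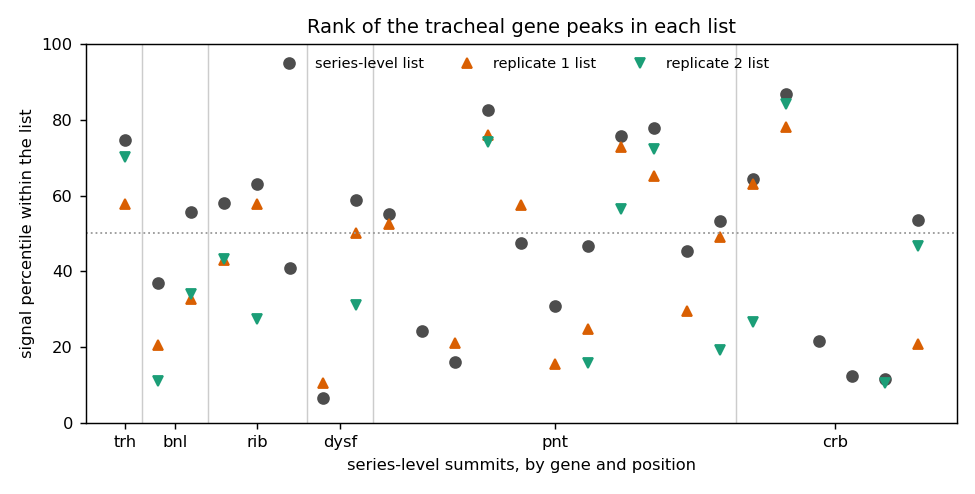
Signal percentile within the list (vertical axis, dotted line at 50) of each series-level member summit (horizontal axis, grouped by gene and ordered by position) in the series-level, replicate 1 and replicate 2 lists. The crb peak at 0.991 kb is highest, at 86.7, 78.2 and 84.0, and the intronic dysf peak is lowest at the series level, at 6.47.

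Both replicates held 14 of the 25 member peaks (56%, 37.1% to 73.3%), against 53.7% of all series-level peaks. Replicate 1 alone held 6, replicate 2 alone held 1 and neither held 4, or 24%, 4% and 16%, against 22.6%, 5.85% and 17.8% of all peaks. The interval for peaks in both replicates includes the share of all peaks. Among the 14 shared peaks the summit in each replicate lay at most 47 bp from the series-level summit. The percentiles of these peaks differed between the replicates by a median of 11.0 points and at most 36.3 points, with replicate 1 higher in 8 of 14.

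Within 50 bp of the summit, TTGCNNAA was in 1 of 25 windows (4%, 0.710% to 19.5%), at crb, against 8.82% of all windows on the arms. The sites TACGTG, bound by Trachealess with its partner Tango, ATGCAAAT, the octamer of POU factors such as Vvl, and TATCGATA, the DNA replication-related element, were in 0 of 25 windows each, an upper bound of 13.3%. Over all windows they were in 2.00%, 1.35% and 2.40%. GAGAGA, bound by GAGA factor, was in 1 of 25, at crb, against 3.87% of all. The interval for TTGCNNAA includes the share of all windows, and so do the ranges up to 13.3% for the 3 motifs at 0. Both strands were searched, and each motif was counted on its own, whether or not a match overlapped that of another. Absence of these letters from a window says nothing more than that.

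Over the whole peak, a scan chosen after values had been seen, TTGCNNAA was in 3 of 25 member peaks (bnl, pnt and crb), 12% against 23.0% of all peaks. TACGTG was also in 3 (12%, against 6.24%), 1 at rib and 2 at crb, and GAGAGA was in 7 (28%, against 14.8%), 2 at rib, 4 at pnt and 1 at crb. ATGCAAAT was in 1, against 3.79% of all, and TATCGATA was in 0, against 5.22% of all. With 25 peaks these shares rest on few matches, and a match is a string of letters, not a shown binding site. The crb peak at 3.62 kb held TACGTG and ATGCAAAT in the same peak, both on the minus strand, 136 and 110 bp before the summit and 20 bases apart. Of the members it was the peak with both. The share of all peaks that hold both is not given here, so the pair has no background to be read against.

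The stretch that holds them is printed in a paragraph of its own, from chr3R:24298546-24298609 on the plus strand, with the reverse complements of TACGTG and ATGCAAAT in capitals.
crb at 3.62 kb: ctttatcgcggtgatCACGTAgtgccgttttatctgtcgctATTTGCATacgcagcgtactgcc
This peak was found in replicate 2 and not in replicate 1, in which the overlapping ranked peak scored 546. It stood at percentile 11.6 of the series-level list and was absent from the conservative list.

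Of 65 further tracheal genes in 7 lists, 43 (66.2%) had a series-level summit, 41 had one in replicate 1 and 32 in replicate 2, against the 44%, 41.1% and 33.1% of all coding genes given earlier. Their median region was 16.7 kb, close to the 17.8 kb of the 10 genes. By length, 28 of 33 wider genes of at least 15 kb had a summit (84.8%, against 75.8%), and 12 of 25 between 5 and 15 kb (48%, against 56.7%). The 65 genes held 155 summits. Gene functions in these lists are those known from the fly.

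FGF signalling genes had summits in 6 of 6, in the series-level list and in each replicate, against 44% of all coding genes. Of the 6, 5 had a region of at least 15 kb, a length at which 75.8% of coding genes had a summit. The 3 with the strongest peaks were Hs6st, an enzyme of heparan sulfate sulfation, at 405, sty, the feedback inhibitor Sprouty, at 361, and stumps, the adaptor of the FGF receptor, at 320. sty had 7 summits, Hs6st 3 and stumps 2. Of the other signalling genes, with a median region of 29.5 kb, 7 of 8 (87.5%, against 44%) had a summit, and Delta had none. They were led by N, the Notch receptor, at 332, dpp, the BMP ligand, at 219 and its receptor tkv at 204.

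The tracheal transcription factors had summits in 6 of 11 (54.5%, against 44% of all coding genes), and tgo, salm, salr, esg and peb had none. Their median region was 25.5 kb, and 75.8% of coding genes of at least 15 kb had a summit. The strongest were at bs (Drosophila serum response factor, a terminal cell gene) with 685, sima (the hypoxia-inducible factor subunit) with 507 and hth (a homeodomain factor) with 464. The gene bs lies 8.55 kb from slbo itself, and slbo is the gene of the tagged transgene. Summits numbered 6 at bs, 7 at sima and 11 at hth.

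Luminal chitin and apical matrix genes, which include chitin synthase and chitin-modifying enzymes, had a summit in 4 of 12 (33.3%, against 44% of all coding genes), with dpy at 164, rtv at 108 and mmy at 77.1, and kkv, knk, serp, verm, obst-A, pio, mtg and exp had none. Septate junction genes, which seal the tube wall, had a summit in 8 of 12 (66.7%, against 44%), with scrib at 346, Nrg at 218 and Atpalpha at 207. Of these genes Nrx-IV, Cont, sinu and kune had none. Branch fusion and terminal cell genes had a summit in 6 of 8 (75%, against 44%), with pyd (13 summits) at 237, Hph at 234 and shg at 155, and stac and shrb without one. Apical polarity and invagination genes had a summit in 6 of 8 (75%, against 44%), with par-6 at 571, cv-c at 401 and baz at 218, and Patj and 18w without one. In replicates 1 and 2, genes with a summit numbered 7 and 4 of 8 other signals and 5 and 5 of 11 transcription factors. They numbered 3 and 2 of 12 matrix genes and 8 and 5 of 12 septate junction genes. For branch fusion and terminal cell genes, and for apical polarity genes, they numbered 6 and 5 of 8 each. The shares of all coding genes were 41.1% and 33.1%. The lists hold 6 to 12 genes each, so their shares are coarse, and no difference between lists was tested. The genes in each differ in length, with a median region of 9.75 kb for the matrix genes and 29.3 kb for the FGF signalling genes. The median was 11.8 kb for septate junction, 12.3 kb for branch fusion and terminal cell, and 30.0 kb for apical polarity and invagination genes. Of all coding genes, 56.7% of those between 5 and 15 kb and 75.8% of those of at least 15 kb had a summit.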

How the data were processed

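Chromatin immunoprecipitation with sequencing was analysed from the deposited peak lists of 2 biological replicates (1 group) on dm6. Aligner and peak caller: not given in the sources used here. Thresholded and ranked lists exist for both replicates together (series-level), as a conservative set (thresholded form used), and for each replicate. The authors' deposited signal column holds the peak caller's value, with no stated scaling, and was read only within a list. The score was set by the authors from the IDR, and the deposited lists also give the −log10 of a q-value, which was not used. Read counts are not in the lists and depth is unknown. No column came from another sample (0).

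Peaks on 6 arms were placed by summit on Ensembl release 115 genes, and sequence came from RefSeq Release 6. Locations were assigned in the order promoter (500 bp), 5′ UTR, coding exon, 3′ UTR, noncoding exon, intron, intergenic. A series-level peak counted as found in a replicate if it overlapped a thresholded peak of that replicate by at least 1 bp. Shares have 95% Wilson intervals, which cover counting error only. With 1 group there was no contrast to test and no p-value was computed. All 10 genes were named, and in the wider lists up to 3 genes with the strongest peaks and all without a summit. The members and lists were chosen with earlier results of these data known. The entry Dl was set by hand to Delta, since the synonym is shared with dl, and ATPalpha was matched to Atpalpha by synonym. Counting was checked on simulated peaks. Python 3.11.15, pandas 2.3.3 and scipy 1.17.1 were used. Alternatives were each replicate alone, the conservative list, score limits, other gene regions and promoter widths, other overlap rules and a wider motif window.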

Additional observations from a re-analysis of the deposited data

How the results depend on the processing

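The count of members with a summit stayed within 6 to 7 and the number of summits within 17 to 27 under every alternative run, and kni and Gasp had 0 summits in all. The promoter share of 16% became 22.7% in the conservative list, 22.2% with 5 kb upstream, 9.09% with the gene body only, 24% with promoters of 1000 bp and 4% with promoters of 250 bp. The share of peaks in both replicates (56%) was 66.7% to 88.2% when each replicate's own list was used alone and set against the other. The median percentile (53.3) was 31.1 to 49.1 over the lists of single replicates. TTGCNNAA matches (1 at the series level) numbered 3 with 5 kb upstream and 2 with a window of 100 bp to each side of the summit. The replicate 1 list had 0 and the replicate 2 list had 1. That 1 was another match, since the series-level one lay in the crb peak at 2.04 kb, absent from both replicates' lists. Counts per gene moved by over 1.5 times in 11 of 100 values. At dysf, 1 summit in place of 2 was counted in replicate 2, in the conservative list, at the highest score, in the gene body only and by nearest coding start site. By nearest coding start site pnt had 5 in place of 11, bnl 1 in place of 2 and vvl 1 in place of 0, and btl had 1 with 5 kb upstream. No paired analysis was possible because the series has 1 group. Depth is unknown, so a summit missing from a list is not shown to be absent from the embryos.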

Other observations

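The stretches around the 6 genes with peaks also held summits outside their regions. The nearest on the upstream side of trh lay 48.7 kb away, close to a start site of klar, with a signal of 630, and on its downstream side 5.10 kb away at Cdc5, with 119. At pnt they lay 9.97 kb upstream at ATPsynCF6 (242) and 9.10 kb downstream at Cdc16, whose signal of 801 exceeded that of every member peak. At crb they lay 4.95 kb upstream at Uck (119) and 3.93 kb downstream at Nab2 (226). At bnl the upstream one lay 10.4 kb away at MICU3 (303), and the downstream one 121 kb away. At rib they lay 15.3 kb upstream, nearest to CG33453 (153), and 1.35 kb downstream, nearest to CG11906 (62.9), the closest of any. At dysf they lay 5.86 kb upstream, nearest to Cipc (124), and 14.3 kb downstream at CG14551 (5.81).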
